A study of Mus musculus with 29 samples.

Results

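*Il1rapl1*, *Il1rapl2*, *Il1rap*, *Ptprd*, *Ptprf* and *Ptprs* encode a set of cell-surface proteins that meet across synapses, and their RNA was followed through 5 sorted populations of the adult mouse retina. These 6 genes were taken by name from the 24062 genes of the deposited expression table, and they were selected on their RNA levels in these libraries, which are therefore given as a description, without a test. *Ptprd*, *Ptprf* (also called LAR) and *Ptprs* are the LAR family of receptor-type tyrosine phosphatases, which sit in the axon terminal and organize the release site from there. *Il1rapl1* and *Il1rap* are postsynaptic ligands of these phosphatases that belong to the interleukin-1 receptor family. *Il1rapl2* is the close relative of *Il1rapl1*, and *Il1rap* is in addition the accessory chain through which interleukin-1 receptors signal. In the retina, bipolar cells receive input from rods and cones and pass it on, ON bipolar cells (ON-BC) responding to light increments through the metabotropic receptor *Grm6* and OFF bipolar cells (OFF-BC) to decrements.

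RNA-seq covered 3 libraries each of all bipolar cells (pan-BC), ON-BC, OFF-BC, rods and blue cones, and ATAC-seq, which maps open chromatin, covered 2 libraries each of the same populations and of green cones. Pan-BC for RNA-seq came from *Otx2*-GFP+/- mice, in which GFP is knocked into the *Otx2* locus, and ON-BC and OFF-BC came from *Otx2*-GFP+/-; *Grm6*-YFP+/+ mice, in which the *Grm6* promoter drives YFP. The ATAC-seq pan-BC libraries are labelled with this second genotype, but the study lists them without the YFP transgene. All bipolar mice were at postnatal day 42 to 48, and by these genotypes they carried 1 GFP allele of *Otx2*. Rods were from Nrl-eGFP mice and green cones from Opn1mw-GFP mice, while the blue cone libraries hold photoreceptors of Nrl-eGFP;NrlKO mice, which form without rods and stand in for blue cones. Photoreceptor mice were at postnatal day 56. OFF-BC were sorted a second time and the other populations compared here once. Class, study and age changed together between bipolar cells and photoreceptors and cannot be told apart in any comparison of them.

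Counted reads were 12329548 to 26266746 per RNA-seq library and 4176776 to 12345845 per ATAC-seq library. Sorting labels were checked against marker lists. The summed level of ON markers was 98077 to 110621 normalized counts for ON-BC libraries and 5688 to 10021 for OFF-BC libraries, and the OFF markers summed to 1273 to 1671 and to 43841 to 66344, respectively. The rod list gave 15976 to 19467 for ON-BC, 728 to 1201 for OFF-BC and 1126627 to 1727889 for rods themselves. The cone list gave 20113 to 89044 for OFF-BC, with 1369784 to 1583076 for blue cones. Of the 4 OFF markers, 1 went the other way, with 847 to 1049 for ON-BC against 175 to 351 for OFF-BC. Pan-BC had 82726 to 89854 for ON markers, 9987 to 11505 for OFF markers and 40250 to 65874 for cone markers, of which ON-BC had 3925 to 4551. In sorted bulk samples, fewer cells of a type and less RNA per cell cannot be told apart. The labels do not say whether replicates were separate animals. The p-values measure a spread between libraries that is pooled over all populations of an assay, not only those compared.

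*Ptprd* and *Ptprs* were the most abundant members in bipolar cells. *Ptprd*, which binds both IL1RAPL1 and IL1RAP, had normalized counts (reads divided by a size factor for each library) of 7642, 7270 and 8795 among pan-BC libraries, 8959, 8517 and 7819 among ON-BC and 6182, 7907 and 7953 among OFF-BC. The rod libraries held 33.96, 16.39 and 42.15, and the blue cone libraries 9.025, 53.12 and 37.01. All 9 bipolar libraries thus lay far above all 6 photoreceptor libraries, and the ON and OFF libraries overlapped. Between ON-BC and OFF-BC the log2 ratio was 0.21 with an SE of 0.43 and a 95% interval of -0.71 to 1.12 (log2 of the normalized count plus 1, here and for all log2 ratios below). Each SE and interval uses 1 spread per gene estimated over all populations, so it does not measure the ON-BC and OFF-BC spread alone. For *Ptprd* the SD of the log2 values was 0.10 in ON-BC, 0.21 in OFF-BC and 1.28 in blue cones. *Ptprd* of pan-BC exceeded rods 256-fold and blue cones 238-fold. Folds of members are summed reads over summed size factors of each group, and can differ slightly from the ratio of the printed means.

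*Ptprs*, the phosphatase that also binds heparan and chondroitin sulfate proteoglycans, was the member with the smallest differences between bipolar cells and photoreceptors. Pan-BC libraries held 4430, 4377 and 4675 normalized counts, ON-BC 5027, 4715 and 5067, and OFF-BC 4632, 4627 and 4822. Rod libraries held 1141, 1113 and 1064, and blue cone libraries 1676, 1323 and 1399. ON-BC and OFF-BC overlapped, with a log2 ratio of 0.07 (SE 0.09, 95% interval -0.13 to 0.27). Photoreceptors kept a substantial level, and pan-BC stood 4.05-fold above rods and 3.06-fold above blue cones. Blue cone libraries lay above rod libraries without overlap, by 1.32-fold.

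*Ptprf* was low throughout. Pan-BC had normalized counts of 97.86, 77.68 and 124.8, ON-BC of 72.23, 78.39 and 62.59 and OFF-BC of 48.06, 94.91 and 75.04. Rods had 8.732, 16.39 and 8.645, and blue cones 3.008, 23.52 and 11.84. The bipolar populations overlapped each other, as did rods and blue cones, and no bipolar library reached down to a photoreceptor library. The ON/OFF log2 ratio was 0.02 with an interval of -1.05 to 1.08, which does not exclude a 2-fold difference in either direction. The SD of the log2 values was 0.16 in ON-BC, 0.49 in OFF-BC and 1.32 in blue cones, which all enter that interval. *Ptprf* of pan-BC stood 8.76-fold above rods and 7.73-fold above blue cones.

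The interleukin-1 receptor relatives differed between ON and OFF cells, and in different directions. *Il1rapl2* was high in ON-BC, with normalized counts of 321.9, 245.9 and 319.1, and near 0 in OFF-BC, with 2.235, 1.201 and 11.03. The means stood at 296 ± 43.1 and 4.82 ± 5.40 (SD, n = 3). ON-BC was 59.7-fold higher, with a log2 ratio of 6.06 (SE 0.64, 95% interval 4.70 to 7.42). Pan-BC had 376.5, 256.2 and 282.6 and overlapped ON-BC. No read of the gene was counted in the 3 rod libraries, which makes pan-BC at least 298-fold higher against a floor of 3 reads over the rod group. Blue cones had 0, 3.794 and 5.921 normalized counts.

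*Il1rapl1* showed the opposite order at a lower level. OFF-BC had normalized counts of 57, 87.7 and 36.41, whereas ON-BC had 1.032, 7.839 and 0, which correspond to 1, 8 and 0 counted reads. All OFF-BC libraries lay above all ON-BC libraries, with means of 60.4 ± 25.8 and 2.96 ± 4.26 (SD, n = 3). OFF-BC was 19.6-fold higher, with a log2 ratio of -4.46 (SE 0.68, 95% interval -5.90 to -3.02). The SD of the log2 values was 0.62 in OFF-BC, 1.60 in ON-BC and 0.00 in rods, which all enter that SE. Without ON-BC replicate 2, which holds 8 of the 9 reads of that group, the log2 ratio was -5.34. Pan-BC lay between both populations with 14.89, 21.18 and 8.565. Rods had no counted read of *Il1rapl1*, which places pan-BC at least 14.9-fold higher, and blue cones had 2 reads in all, which gives a pan-BC excess of 30.5-fold with a counting interval of 7.95 to 261.

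*Il1rap* was higher in ON-BC than in OFF-BC, and higher in blue cones, the only cones with RNA-seq, than in rods. ON-BC libraries held 1391, 1612 and 1043 normalized counts, OFF-BC libraries 96.12, 132.2 and 115.9, and pan-BC libraries 1242, 1080 and 1100. ON-BC exceeded OFF-BC 11.8-fold without overlap, with a log2 ratio of 3.53 (SE 0.39, 95% interval 2.70 to 4.37). Rods had 13.58, 2.049 and 4.323 and blue cones 154.2, 88.78 and 94.74, so that blue cones stood 16.5-fold above rods, again without overlap, and in the range of OFF-BC. Pan-BC was 10.1-fold above blue cones and 167-fold above rods. Beside the *Il1rap* level in blue cones, the ON marker list summed to 563 to 965 there, against 82726 to 89854 for pan-BC, and beside the level in OFF-BC the ON gene *Grm6* had 64.9 to 593 there, against 13260 to 13835 in ON-BC. The part of carried-over RNA in these low levels was not tested.

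Across all genes tested, 2.95% were called higher in ON-BC and 3.60% higher in OFF-BC, a call being an adjusted p below 0.05 in limma's test against a 2-fold change. These shares were 27.8% for pan-BC over rods and 15.8% for rods over pan-BC, 22.7% for pan-BC over blue cones and 13.7% for the reverse, and 4.63% for rods over blue cones and 11.3% for the reverse. Counted by libraries that do not overlap, 2 of the 6 members were higher in ON-BC (19.6% of all tested genes were) and 1 in OFF-BC (22.6%), and all 6 were higher in pan-BC than in rods (46.0%) as well as than in blue cones (42.7%). Since these RNA values were known when the members were chosen, nothing is read from these counts. Both comparisons with pan-BC use the same 3 pan-BC libraries.

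**Figure D1:**
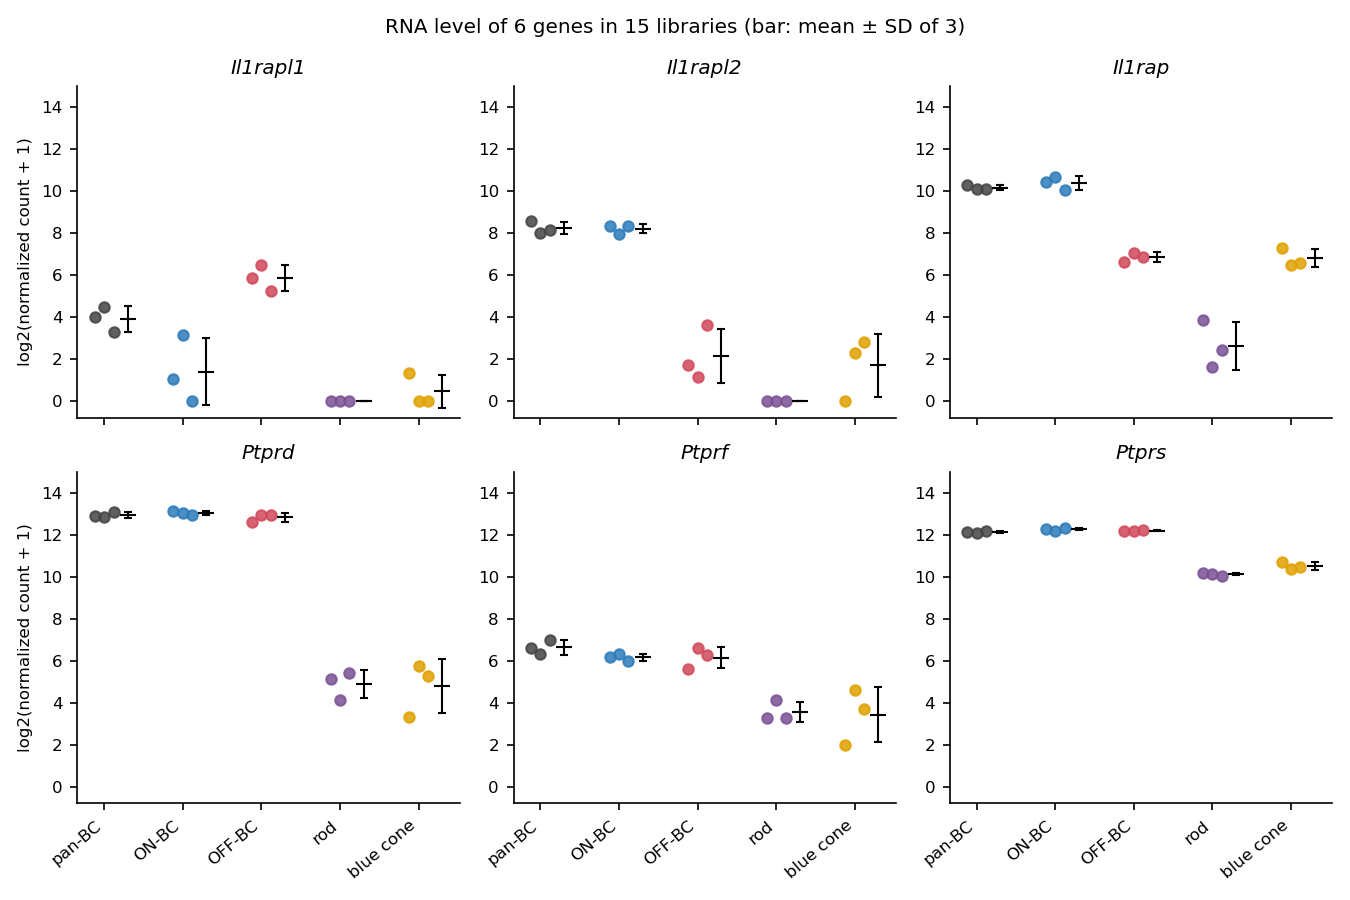
RNA level of each of the 6 genes in the 15 libraries, as log2(normalized count + 1), with points for libraries and bars for the mean ± SD of 3. *Il1rapl2* and *Il1rap* sit high in ON-BC and low in OFF-BC, *Il1rapl1* the reverse, and *Ptprd*, *Ptprf* and *Ptprs* are level among bipolar populations and lower in rods and blue cones.

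Levels were divided by the exon length of each gene, which makes genes roughly comparable. This length joins the exons of all RefSeq transcripts, 52 for *Ptprd* and 21 for *Ptprs* but 1 each for *Il1rapl1* and *Il1rapl2*. Which transcripts were expressed was not tested, so orders and shares between genes are approximate. Per kilobase of exon, the order in pan-BC and ON-BC was *Ptprd*, *Ptprs*, *Il1rap*, *Il1rapl2*, *Ptprf*, *Il1rapl1*, with ON-BC means of 629, 349, 119, 54.5, 9.19 and 0.316 normalized counts per kb. In OFF-BC the means per kb were 548 for *Ptprd*, 332 for *Ptprs*, 10.2 for *Il1rap*, 9.40 for *Ptprf*, 6.44 for *Il1rapl1* and 0.890 for *Il1rapl2*. From *Il1rap* to *Ptprf* and from *Ptprf* to *Il1rapl1*, neighbours differed there by less than the spread of *Ptprf* over the libraries. Photoreceptors had a different leader, *Ptprs*, with 78.2 per kb in rods and 104 in blue cones, and *Il1rap* came next in blue cones with 9.97.

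Summed per kb, the LAR family reached 920 ± 73.5 for pan-BC, 987 ± 42.4 for ON-BC and 889 ± 82.2 for OFF-BC, but 81.9 ± 2.41 for rods and 108 ± 10.3 for blue cones (SD, n = 3). Its composition split by cell class. *Ptprd* made up 63.7% of the sum for ON-BC and 61.5% for OFF-BC but 2.82% for rods and 2.40% for blue cones, where *Ptprs* made up 95.4% and 96.0%. *Ptprf* stayed between 0.931% and 1.78% of the sum in every population. The summed level of *Il1rapl1*, *Il1rapl2* and *Il1rap* was 174 ± 20.2 per kb for ON-BC against 17.5 ± 3.34 for OFF-BC, and its make-up differed as well. *Il1rap* gave 68.0% and *Il1rapl2* 31.8% of it in ON-BC, whereas *Il1rap* gave 58.4% and *Il1rapl1* 36.2% in OFF-BC. In blue cones, where the sum was 10.6 ± 2.80, *Il1rap* gave 93.0%.

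**Figure D2:**
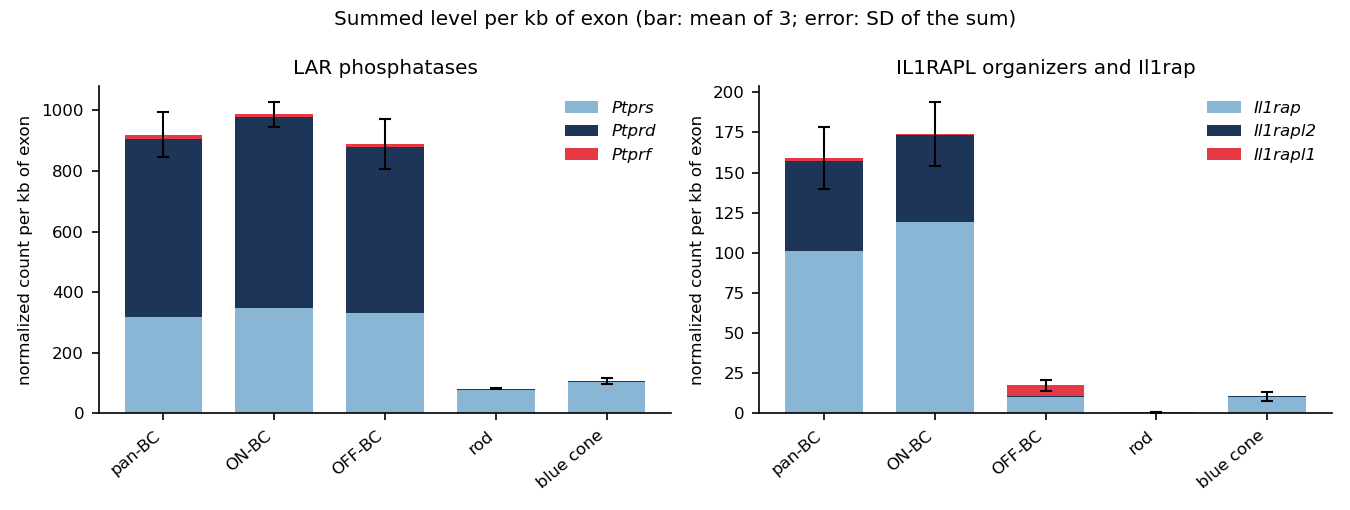
Summed level of the LAR phosphatases (left) and of *Il1rapl1*, *Il1rapl2* and *Il1rap* (right) in each population, in normalized counts per kb of exon, stacked by gene as means of 3 libraries with the SD of the sum. The LAR sum is 889 to 987 in bipolar populations with *Ptprd* as the largest part, and 81.9 and 108 in rods and blue cones, nearly all *Ptprs*.

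For 5 members the genes with the most similar pattern over the 15 libraries were sought among 14024 tested genes, by the root mean square difference of log2 levels after each gene was centred on its mean. *Il1rapl2* was nearest to *Grm6*, the glutamate receptor of ON-BC, at 0.60, and to *Reln*, the secreted glycoprotein reelin, at 0.62. *Il1rap* was nearest to *Dpp4*, a surface peptidase, at 0.63, and to the cadherin *Cdh12* at 0.68. The nearest genes of *Il1rapl1* were *Fmnl1*, a formin that acts on actin, at 0.59 and *Nhsl2* at 0.61. For *Ptprd* they were *Ctnnd2*, which encodes the synaptic protein delta-catenin, at 0.52 and *1500009C09Rik* at 0.53, and for *Ptprs* *Ccni* at 0.14 and *Zcchc18* at 0.17. The small distances of *Ptprs* go with its small range over the libraries.

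The partners of these proteins were examined as 5 lists of 63 genes in all, of which 53 passed the filter on low counts. The lists were chosen with earlier results of these data known, so the calls and p-values below are a description. The list of extracellular partners of LAR phosphatases held 14 genes (genes of SLITRK proteins, the *Lrfn* genes that encode SALM proteins, *Lrrc4b*, *Ntrk3* and *Gpc4*), and binding was not examined for each of them. Their median ON/OFF log2 ratio was 0.01, against -0.02 for all genes. In this list 3 genes were called (21.4%), all higher in OFF-BC, where 3.60% of all genes were. *Slitrk6* stood out with 6132 ± 1341 normalized counts among OFF-BC against 97.5 ± 54.0 among ON-BC libraries (SD, n = 3), a log2 ratio of -6.07 (SE 0.28, adjusted p = 2.48e-09, limma). *Ntrk3*, the neurotrophin-3 receptor that also binds PTPRS, had 563 ± 56.1 against 86.5 ± 10.6 (log2 ratio -2.69, SE 0.17, adjusted p = 2.12e-06, limma). *Lrfn5* had 33.0 ± 10.5 in OFF-BC and no counted read in ON-BC, at least 32.6-fold higher in OFF-BC against 3 reads over the group (adjusted p = 5.52e-06, limma).

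Against photoreceptors, the extracellular partners were mostly higher in bipolar cells. In pan-BC over rods, 10 of 14 rose (71.4%) and 1 fell (7.14%), where 27.8% and 15.8% of all genes did. The median log2 ratio was 4.23 against 0.21 for all genes. *Slitrk3* had 2343 ± 234 in pan-BC and 17.2 ± 4.83 in rods (log2 ratio 7.03, SE 0.18, adjusted p = 2.3e-14, limma), *Slitrk5* had a log2 ratio of 8.02 (adjusted p = 4.31e-11, limma), and *Slitrk1*, without a read in rods, was at least 123-fold higher (adjusted p = 1.19e-07, limma). *Ntrk3* went the other way, with a mean of 664 in rods and a log2 ratio of -1.86 (adjusted p = 0.000243, limma). Over blue cones, 9 rose (64.3%) and 1 fell (7.14%), where 22.7% and 13.7% of all genes did, with a median of 3.09 against 0.16. The gene that fell was *Lrfn2*, which encodes SALM1 and had 1239 ± 246 in blue cones (log2 ratio -2.29, adjusted p = 0.000172, limma). *Lrfn2* was also higher in blue cones than in rods (log2 ratio -3.70, adjusted p = 8.7e-08, limma), as were 4 other genes of this list, among them *Slitrk6* with -3.42, and none was higher in rods. The share higher in blue cones was 35.7%, against 11.3% of all genes.

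The 11 cytoplasmic partners of LAR phosphatases, which include the liprins, the guanine nucleotide exchange factor *Trio* and the *Caskin* scaffolds, had a median ON/OFF ratio of 0.19. Of these, 1 was called, the liprin-beta gene *Ppfibp2*, with 27.5 ± 6.82 normalized counts for ON-BC against 1.94 ± 1.44 for OFF-BC (log2 ratio 3.35, SE 0.70, adjusted p = 0.0318, limma), a call lost in 6 of 13 alternatives, among them the replicate block (adjusted p = 0.0547, limma). ON-BC and OFF-BC replicates with the same number shared an age. Over rods 5 rose (45.5%) and 1 fell (9.09%), where 27.8% and 15.8% of all genes did. *Trio* at 6.10 (adjusted p = 3.45e-11, limma) and *Caskin1* at 5.10 (adjusted p = 6.02e-11, limma) were among the higher and *Caskin2* at -2.88 (adjusted p = 3.09e-05, limma) was the lower. Over blue cones 2 rose and 2 fell (18.2% each), where 22.7% and 13.7% of all genes did. The liprin-alpha gene *Ppfia2* was lower in pan-BC, with 14487 ± 1240 normalized counts in blue cones (log2 ratio -1.82, adjusted p = 5.73e-05, limma). Blue cones exceeded rods for 5 of the 11 (45.5%, against 11.3% of all genes), led by *Trio* at -4.99 (adjusted p = 3.12e-09, limma).

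None of the 4 tested cytoplasmic partners of IL1RAPL1 was called between ON-BC and OFF-BC by limma, and their median log2 ratio was -0.04. *Ncs1*, a neuronal calcium sensor, rose in pan-BC over rods (log2 ratio 6.34, adjusted p = 3.16e-13, limma) and over blue cones (2.56), *Mapk8* (JNK1) rose over blue cones (1.57), and *Dlg4* (PSD-95), a scaffold that photoreceptor terminals also hold, fell against rods (-1.52, adjusted p = 0.00113, limma).

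Of 17 genes of interleukin-1 family signalling, 10 passed the filter. Between ON-BC and OFF-BC 1 was called, *Sigirr*, an inhibitory receptor with 19.0 ± 7.90 normalized counts for OFF-BC against 1.63 ± 2.83 for ON-BC (adjusted p = 0.0495, limma), a call lost in 9 of 13 alternatives. The receptor *Il1r1*, which pairs with IL1RAP to signal, had 376 ± 44.0 normalized counts for ON-BC, 884 ± 120 for OFF-BC and 459 ± 56.2 for pan-BC, with means of 12.3 for rods and 8.76 for blue cones. Pan-BC exceeded rods (log2 ratio 5.66, adjusted p = 1.18e-07, limma) and blue cones (5.56, adjusted p = 2.7e-07, limma). The nuclear cytokine *Il33* fell against rods (-3.60, adjusted p = 0.00107, limma) and blue cones (-3.01). Of the interleukin-1 ligands, *Il1b* had group means of at most 0.251 and the antagonist *Il1rn* at most 0.752 normalized counts, and *Il1a* reached 6.53 in blue cones. Microglial markers summed to 7.45 to 13.5 in pan-BC and 123 to 221 in blue cones.

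The 14 other receptor-type phosphatases that passed the filter had a median ON/OFF ratio of 0.72. *Ptprt* (204 ± 8.44 against 9.75 ± 7.84, log2 ratio 4.49, adjusted p = 5.63e-05, limma) and *Ptprk* (51.8 ± 8.37 and 2.96 ± 2.56, log2 ratio 4.08, adjusted p = 0.00069, limma) were higher in ON-BC. *Ptpre* was higher in OFF-BC (290 ± 39.0 against 5.43 ± 5.09, log2 ratio -5.77, adjusted p = 2.42e-05, limma). Over rods 11 rose (78.6%), where 27.8% of all genes did. Among them were *Ptprr* at 8.33 (adjusted p = 3.11e-08, limma) and *Ptprz1* at 7.72 (adjusted p = 6.25e-13, limma). *Ptpru* fell by 5.90 on the log2 scale (adjusted p = 1.27e-06, limma), with 579 ± 25.4 in rods. *Ptpru* was also the gene of this list that was higher in rods than in blue cones (log2 ratio 6.89, adjusted p = 4.77e-07, limma), while 6 were higher in blue cones (42.9%, against 11.3% of all genes). *Ptprn2*, a phosphatase relative of secretory vesicles, was lower in pan-BC than in blue cones (-2.73, adjusted p = 7.38e-08, limma).

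Over all 53 partners tested, 5.66% were called higher in ON-BC and 9.43% higher in OFF-BC, against 2.95% and 3.60% of all genes. For pan-BC over rods the shares were 58.5% higher and 11.3% lower, against 27.8% and 15.8% of all genes. For pan-BC over blue cones they were 50.9% and 9.43%, against 22.7% and 13.7%. For rods over blue cones they were 1.89% higher and 35.8% lower, against 4.63% and 11.3%. Since the lists were chosen with earlier results of these data known, nothing is read from these shares.

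**Figure D3:**
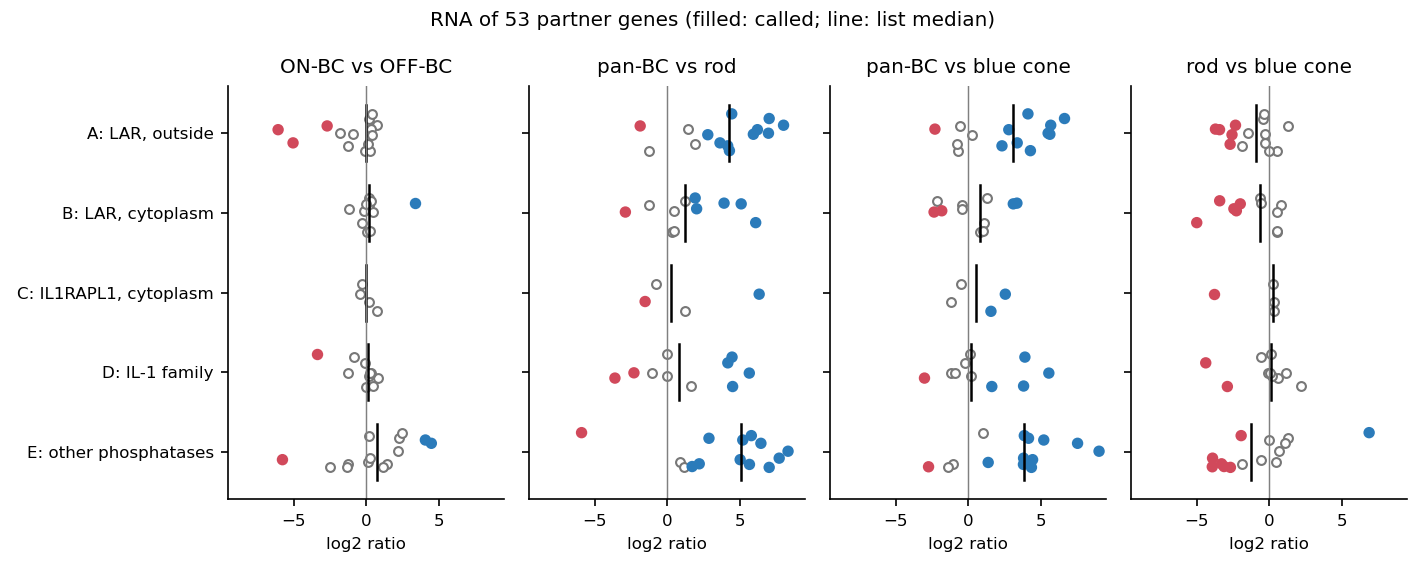
Log2 ratio of RNA for the 53 tested partner genes in the 4 comparisons, by list, with filled points for genes called by limma and a line for the list median. Medians lie near 0 between ON-BC and OFF-BC apart from 0.72 for other phosphatases, and at 4.23 and 5.12 for extracellular partners and other phosphatases between pan-BC and rods.

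Open chromatin gave a measurement of these loci in other libraries. On GRCm38.p6, *Il1rapl1* lies on chromosome X at 86740937 to 88115948 (minus strand, 1375.0 kb) and *Il1rapl2* on the same chromosome at 137570754 to 138849077 (plus strand, 1278.3 kb). *Ptprd* spans 2270.5 kb on chromosome 4 at 75941237 to 78211742 (minus strand) with 52 RefSeq transcripts, and *Ptprf* 83.2 kb at 118208213 to 118291405 of that chromosome (minus strand). *Il1rap* lies on chromosome 16 at 26581509 to 26730128 (plus strand, 148.6 kb) and *Ptprs* on chromosome 17 at 56412426 to 56476561 (minus strand, 64.1 kb). Of 110715 regions of 200 bp in the deposited table, 95 had their centre within these genes or up to 10 kb upstream, and 94 passed the filter on low counts. *Ptprd* held 51, of which 50 were intronic, *Il1rapl2* held 13, *Ptprs* 10, *Il1rapl1* 8, *Ptprf* 7 and *Il1rap* 6. The nearest start site was the gene's own at 27 regions of *Ptprd*, 6 of *Il1rapl2*, 6 of *Ptprs*, 5 of *Il1rapl1*, 3 of *Ptprf* and 5 of *Il1rap*. Which gene a region acts on was not tested.

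Between ON-BC and OFF-BC, 14 of the 94 regions were called higher in ON-BC and 2 higher in OFF-BC (14.9% and 2.13%), where 4.58% and 2.80% of all regions were. The members were chosen on their RNA, so nothing is read from these shares. With TMM scaling, which moved the median of all regions from 0.15 to -0.07 and the ON-BC share of all calls from 62.1% to 51.5%, the member calls were 12 and 2. That share was 78.2% with a pseudocount of 5 (20 and 3 member calls) and 78.8% by DESeq2 (14 and 2). The called regions were 9 at *Ptprd*, 3 at *Il1rapl2*, 1 at *Il1rapl1* and 3 at *Il1rap*, of which 2 were the ones higher in OFF-BC. None was called at *Ptprf* or *Ptprs* by limma. The ON-BC calls were 7 without ON-BC replicate 2 and 9 without either OFF-BC replicate, with the same number of 2 in OFF-BC, and edgeR called 23 and 3.

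**Figure D4:**
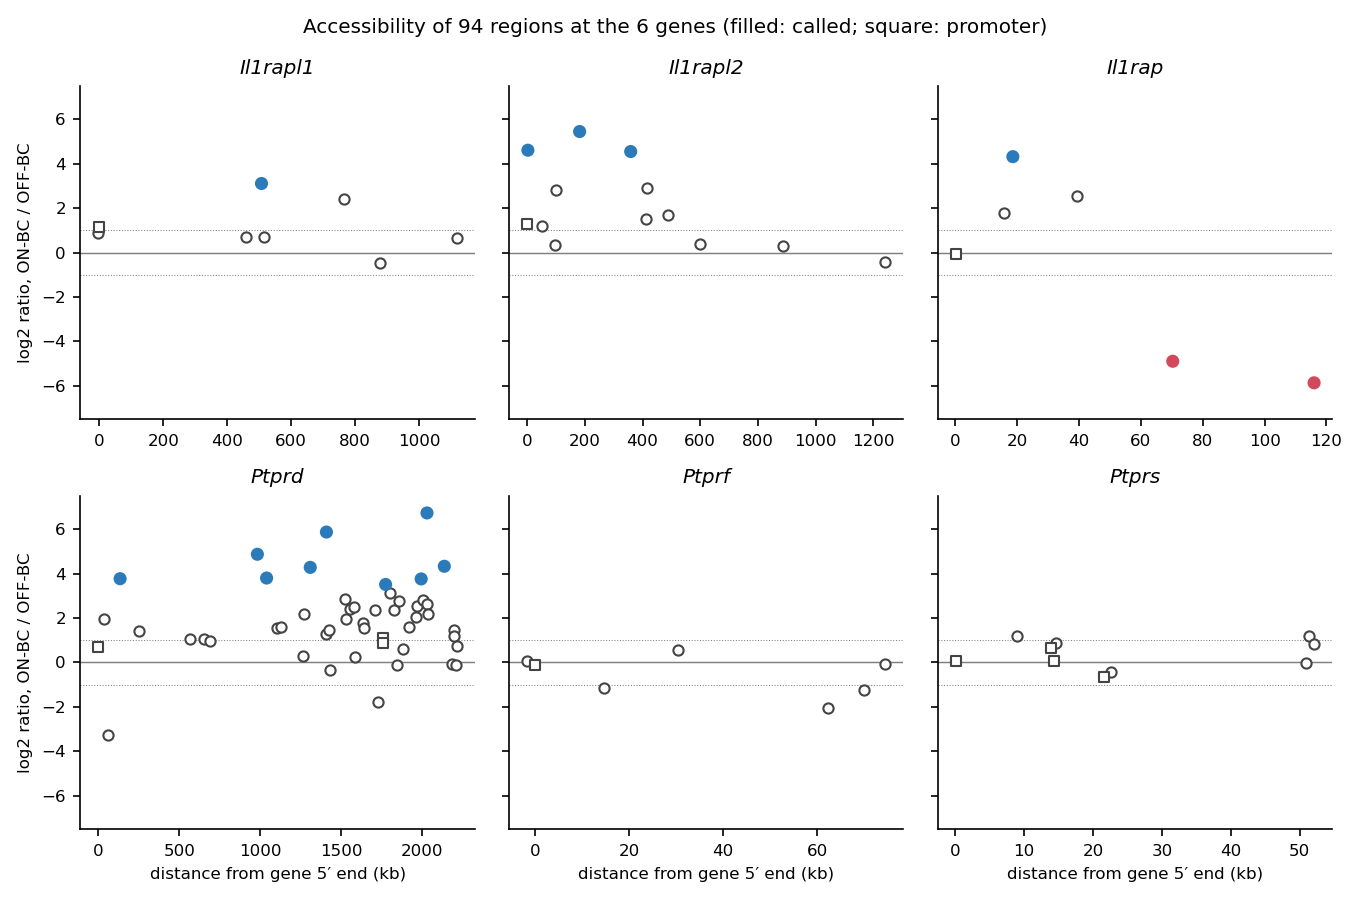
Log2 ratio of ATAC-seq counts, ON-BC over OFF-BC, for the 94 tested regions at the 6 genes against distance from the 5′ end of the gene in kb, with filled symbols for called regions and squares for promoters. Called regions are at *Ptprd* (9), *Il1rapl2* (3), *Il1rap* (3) and *Il1rapl1* (1), and the highest promoter is that of *Il1rapl2* at 1.28. Dotted lines mark log2 ratios of 1 and -1.

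Sequences of 10 of the regions named at these loci are shown here from the GRCm38.p6 genome of RefSeq, plus strand, 5′ to 3′. The promoters among them were not called between ON-BC and OFF-BC. Capitals mark matches on either strand to motifs searched in all regions, TAATCC (bound by K50 homeodomain factors such as CRX and OTX2), TAATTA (Q50 homeodomain factors) and the E-boxes CAGNTG and CATNTG. At *Il1rapl2* they are the promoter at chrX:137570423-137570622 and the ON-BC regions at chrX:137573262-137573461 and chrX:137752268-137752467.
Il1rapl2 promoter: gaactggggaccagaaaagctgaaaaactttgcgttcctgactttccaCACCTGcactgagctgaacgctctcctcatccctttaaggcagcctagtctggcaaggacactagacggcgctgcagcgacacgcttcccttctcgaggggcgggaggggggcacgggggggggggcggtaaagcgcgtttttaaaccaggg
Il1rapl2 intron near start, ON-BC: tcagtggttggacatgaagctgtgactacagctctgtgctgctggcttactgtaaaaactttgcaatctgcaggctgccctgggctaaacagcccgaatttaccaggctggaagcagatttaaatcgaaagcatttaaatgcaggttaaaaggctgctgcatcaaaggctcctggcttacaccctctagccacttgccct
Il1rapl2 intron, ON-BC: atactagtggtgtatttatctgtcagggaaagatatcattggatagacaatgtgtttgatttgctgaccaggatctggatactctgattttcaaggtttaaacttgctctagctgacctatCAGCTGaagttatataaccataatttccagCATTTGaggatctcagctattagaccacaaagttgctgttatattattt
At *Il1rap* they are the ON-BC region at chr16:26600006-26600205 and the OFF-BC regions at chr16:26651742-26651941 and chr16:26697835-26698034.
Il1rap intron, ON-BC: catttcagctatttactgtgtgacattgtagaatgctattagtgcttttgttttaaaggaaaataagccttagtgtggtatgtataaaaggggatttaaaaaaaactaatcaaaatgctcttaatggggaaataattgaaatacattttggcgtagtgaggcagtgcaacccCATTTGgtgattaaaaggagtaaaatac
Il1rap intron, OFF-BC and cones, proximal: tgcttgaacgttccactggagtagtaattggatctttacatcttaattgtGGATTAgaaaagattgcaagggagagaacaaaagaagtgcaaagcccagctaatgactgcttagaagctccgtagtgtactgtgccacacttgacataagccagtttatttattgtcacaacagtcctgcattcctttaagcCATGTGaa
Il1rap intron, OFF-BC and cones, distal: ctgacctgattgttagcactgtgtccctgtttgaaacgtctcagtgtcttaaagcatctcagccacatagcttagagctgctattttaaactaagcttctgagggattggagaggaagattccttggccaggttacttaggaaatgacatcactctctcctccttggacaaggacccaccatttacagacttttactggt
For *Il1rapl1* the intronic region called in ON-BC is at chrX:87611274-87611473.
Il1rapl1 intron, ON-BC: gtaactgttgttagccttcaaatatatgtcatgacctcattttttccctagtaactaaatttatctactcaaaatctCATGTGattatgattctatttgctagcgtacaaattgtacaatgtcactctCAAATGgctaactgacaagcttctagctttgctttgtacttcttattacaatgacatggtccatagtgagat
For the phosphatases they are the promoter of the longest *Ptprd* transcripts at chr4:78211864-78212063, the *Ptprd* region with the largest difference at chr4:76179550-76179749, and the *Ptprf* region open in rods at chr4:118221362-118221561.
Ptprd promoter: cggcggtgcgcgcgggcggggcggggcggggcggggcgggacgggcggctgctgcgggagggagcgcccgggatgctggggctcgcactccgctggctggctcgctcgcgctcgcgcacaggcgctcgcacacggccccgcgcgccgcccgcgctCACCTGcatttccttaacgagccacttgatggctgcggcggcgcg
Ptprd intron, ON-BC: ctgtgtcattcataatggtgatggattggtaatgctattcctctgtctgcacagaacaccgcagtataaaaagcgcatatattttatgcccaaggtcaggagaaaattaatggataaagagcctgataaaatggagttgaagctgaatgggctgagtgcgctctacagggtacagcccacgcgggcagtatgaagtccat
Ptprf intron, rod: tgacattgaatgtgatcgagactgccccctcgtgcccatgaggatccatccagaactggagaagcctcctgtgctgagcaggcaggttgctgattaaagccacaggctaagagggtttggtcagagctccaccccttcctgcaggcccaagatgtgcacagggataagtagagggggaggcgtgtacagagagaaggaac

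The *Il1rap* locus held regions of both directions. At its promoter (chr16:26581539-26581738) ON-BC had 294 and 350 normalized counts, OFF-BC 407 and 276, and pan-BC 256 and 333. Blue cones had 142 and 122 and green cones 172 and 200, against 4.67 and 6.78 for rods. The promoter was thus open in every population other than rods, with a log2 ratio of -0.06 between ON-BC and OFF-BC, 5.46 between pan-BC and rods (SE 0.24, adjusted p = 3.09e-10, limma) and -4.32 between rods and blue cones (SE 0.24, adjusted p = 2.27e-08, limma). The ON-BC region printed above, 18.6 kb from the start, had 68.7 and 61.5 for ON-BC, 47.2 and 49.0 for pan-BC, 2.69 and 1.95 for OFF-BC, no read for rods, and 2.59 and 2.17 for blue cones, and was higher in ON-BC than in OFF-BC (log2 ratio 4.32, SE 0.79, adjusted p = 0.00784, limma).

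Farther into the gene, regions at 70.3 kb and 116 kb had the reverse pattern. The first of these had 80.8 and 41.9 for OFF-BC, 2.99 and 0 for ON-BC, 32.4 and 27.5 for blue cones, 32.3 and 23.9 for green cones, and 0 and 1.36 for rods (ON/OFF log2 ratio -4.89, SE 0.69, adjusted p = 0.0012, limma). The other had 67.4 and 48.7 for OFF-BC, no read for ON-BC or rods, 32.4 and 21.7 for blue cones, and 46.1 and 56.3 for green cones. OFF-BC was there at least 25.5-fold above ON-BC (adjusted p = 6.92e-05, limma) and blue cones at least 23.5-fold above rods (adjusted p = 0.00013, limma). The start site nearest to the region at 116 kb was that of *Gm20319*. These regions were therefore open in OFF-BC and in both cone types, the populations with mean *Il1rap* RNA near 115 in OFF-BC and 113 in blue cones, while ON-BC with 1349 had no or few reads in them. Cone markers in OFF-BC are given above, and their part in these counts was not tested.

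**Figure D5:**
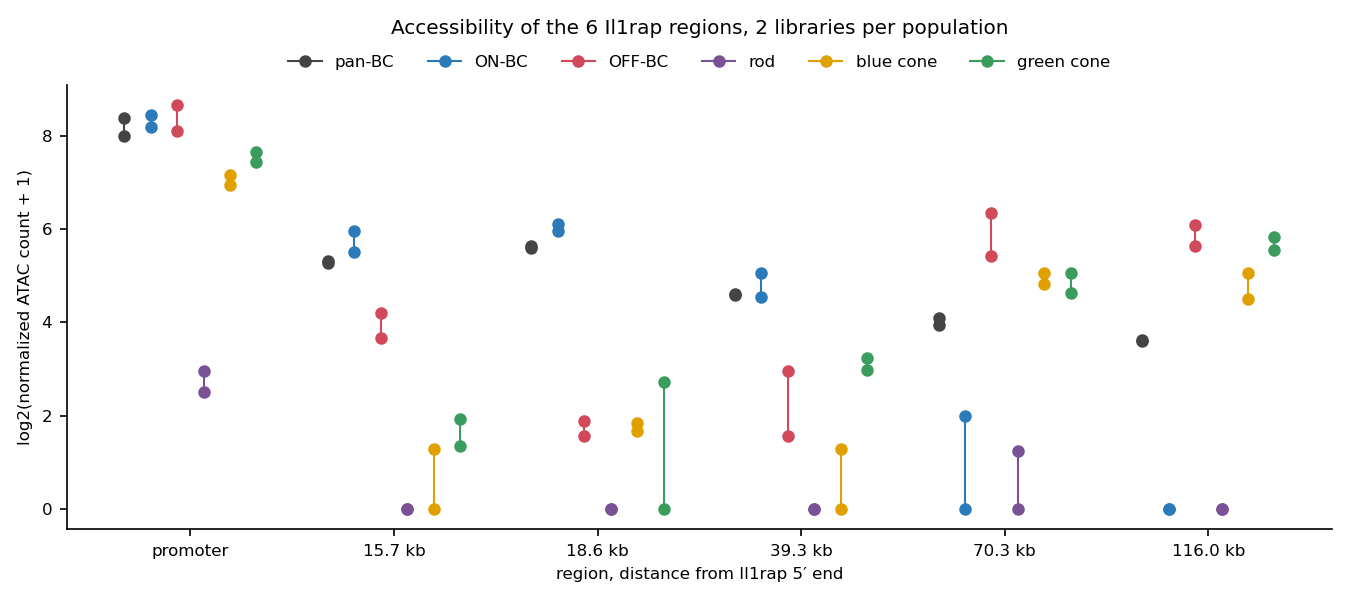
ATAC-seq level of the 6 regions at *Il1rap* in the 12 libraries, as log2(normalized count + 1), ordered by distance from the 5′ end of the gene. The promoter is open in all populations but rods, the region at 18.6 kb in ON-BC and pan-BC, and the regions at 70.3 and 116 kb in OFF-BC, blue cones and green cones, with 14.4, 16.0, 11.2 and 11.4 normalized counts in pan-BC.

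At *Il1rapl2*, 3 of 13 regions were called higher in ON-BC, all inside the gene. The remaining 10 were not called, and 1 had an ON/OFF log2 ratio below 0. OFF-BC was open there as well, with 78.1 and 53.5 normalized counts against 161 and 215 for ON-BC at 413 kb (log2 ratio 1.51, not called). The region at 182 kb had 70.2 and 98.1 normalized counts for ON-BC, 68.8 and 54.7 for pan-BC, and 2.69 and 0 for OFF-BC (log2 ratio 5.45, SE 0.77, adjusted p = 0.00102, limma). The region at 359 kb (chrX:137929571-137929770), with *Tex13a* as the gene of the nearest start site, had 79.1 and 73.2 against 2.69 and 1.95 for ON-BC and OFF-BC (log2 ratio 4.55, SE 0.68, adjusted p = 0.00199, limma). The region 2.61 kb from the start had 53.8 and 68.8 against 5.39 and 0 (log2 ratio 4.61, adjusted p = 0.00918, limma), a call lost without ON-BC replicate 2 or OFF-BC replicate 2. The promoter itself had 22.4 and 45.4 for ON-BC, 16.2 and 9.73 for OFF-BC, and 34.4 and 53.6 for pan-BC, an uncalled log2 ratio of 1.28, and was called over rods, where it had no read (adjusted p = 6.07e-05, limma).

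At *Il1rapl1*, no region was called higher in OFF-BC, the population with the higher RNA. The promoter (chrX:88115885-88116084) had 67.2 and 130 for ON-BC against 48.5 and 35.0 for OFF-BC, an uncalled log2 ratio of 1.16, and 68.0 and 129 in pan-BC against no read in rods (adjusted p = 5.4e-07, limma). The single called region of the locus, in an intron 505 kb from the start, was higher in ON-BC, with 26.9 and 41.0 against 4.04 and 1.95 in OFF-BC (log2 ratio 3.15, SE 0.71, adjusted p = 0.0493, limma), a call lost in 8 of 11 alternatives. Of the 8 regions, 7 had an ON/OFF log2 ratio above 0, with a median of 0.80 against 0.15 for all regions, while the RNA log2 ratio was -4.46. Whether accessibility and RNA differ in direction at this locus was not tested.

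*Ptprd* had the most regions, and most had an ON/OFF log2 ratio above 0, while its ON and OFF RNA libraries overlapped. Of 50 tested regions, 44 had an ON/OFF log2 ratio above 0, with a median of 1.70 against 0.15 for all regions, and 9 were called in ON-BC. Regions came from the union of peaks, and this locus had 42 to 58 peaks in ON-BC libraries against 17 to 28 in OFF-BC. Regions could thus enter through ON-BC or pan-BC alone, so nothing is read from the number above 0 or the median. The region printed above had 142 and 233 for ON-BC, 100 and 131 for pan-BC, and 0 and 1.95 for OFF-BC (log2 ratio 6.73, SE 0.75, adjusted p = 0.00013, limma), and another at chr4:76801846-76802045 had 92.6 and 133 against 2.69 and 0 (log2 ratio 5.87, adjusted p = 0.000559, limma). At the printed promoter, counts were 308 and 259 for ON-BC, 232 and 129 for OFF-BC, and 190 and 314 for pan-BC (log2 ratio 0.70, not called). The same promoter had 1.56 and 0 for rods, 10.4 and 2.17 for blue cones, and 9.22 and 4.22 for green cones, with a log2 ratio of 7.26 between pan-BC and rods (SE 0.57, adjusted p = 6.23e-08, limma). The region most tilted to OFF-BC, at chr4:78150701-78150900, had 53.9 and 25.3 there and an uncalled log2 ratio of -3.26.

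Between pan-BC and rods, 79 of the 94 regions were called higher in pan-BC (84.0%) and 3 higher in rods, where 40.3% and 11.2% of all regions were. Over blue cones 71 were higher in pan-BC (75.5%) and none lower by limma, with 28.8% and 7.13% of all regions. Median log2 ratios were 4.87 and 4.39 (4.77 and 4.30 with regions without a read in photoreceptors set at their bound), against 1.16 and 0.54 for all regions. By gene, pan-BC exceeded rods at 47 regions of *Ptprd*, all 13 of *Il1rapl2*, 7 of *Il1rapl1*, all 6 of *Il1rap*, 4 of *Ptprf* and 2 of *Ptprs*. Between rods and blue cones, 1 region was higher in rods and 6 higher in blue cones, with 1.46% and 8.56% of all regions, and 3 of the 6 were at *Il1rap*. Regions came from the union of peaks, and neither rod library had a peak at *Ptprd*, *Il1rapl1*, *Il1rapl2* or *Il1rap*. Regions there entered through other populations, and the members were chosen on their RNA, so nothing is read from these shares.

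*Ptprs* and *Ptprf* were the loci with chromatin open in rods. The *Ptprs* promoter (chr17:56476391-56476590) had 226 and 215 normalized counts for rods, 277 and 237 for pan-BC, and 159 and 129 for blue cones, and its pan-BC over rod log2 ratio was 0.22. A *Ptprs* region at 21.6 kb, in an exon beside an internal start site, and an intron region at 52.1 kb were higher in rods, the first with 42.1 and 33.9 against 0 and 7.41 in pan-BC (log2 ratio -3.74, adjusted p = 0.0169, limma) and the other with 57.6 and 56.2 in rods (-2.83, adjusted p = 0.0366, limma), calls lost in 4 and 5 of 11 alternatives. The *Ptprf* promoter (chr4:118291309-118291508) had 40.8 and 42.8 in pan-BC and 3.12 and 2.71 in rods (log2 ratio 3.45, SE 0.44, adjusted p = 7.8e-05, limma). Yet the printed intron region of *Ptprf*, 69.9 kb from the start, had 135 and 157 for rods, 9.60 and 10.3 for pan-BC, 13.0 and 14.5 for blue cones, and 41.5 and 43.7 for green cones. It was higher in rods than in pan-BC (log2 ratio -3.75, SE 0.53, adjusted p = 0.000142, limma) and than in blue cones (3.32, SE 0.53, adjusted p = 0.00372, limma). Mean *Ptprf* RNA was 11.3 in rods, but the start site nearest to this region was that of *Mir7226*. Which gene the region acts on was not tested.

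Peaks that the authors called in each library were also counted by locus, without adjustment for the 29410 to 94468 peaks a library had in all. In the *Ptprd* locus there were 42 to 58 peaks in ON-BC libraries, 17 to 28 in OFF-BC, 45 to 85 in pan-BC, none in either rod library and 0 to 1 in blue cones. *Il1rapl2* had 12 to 13 in ON-BC and 2 to 9 in OFF-BC and none in rods or cones, whereas *Il1rap* had 3 in each blue cone library, 2 to 3 in green cones and none in rods. *Ptprs* had 6 in each rod library.

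Motifs were described without a test. TAATCC was in 22 of the 95 member regions (23.2%) and in 21.8% of all regions, TAATTA in 5.26% and 5.20%, CAGNTG in 51.6% and 50.8%, and CATNTG in 44.2% and 41.0%. Of the 14 member regions called in ON-BC, 1 held TAATCC (7.14%), 3 held TAATTA (21.4%), 8 held CAGNTG and 8 held CATNTG (57.1% each), where all regions called higher in ON-BC held them in 34.8%, 4.77%, 54.2% and 57.3%. Among the printed regions, TAATCC occurs in the proximal OFF-BC region of *Il1rap*, as its reverse complement.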

How the data were processed

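RNA-seq and ATAC-seq libraries of sorted retinal cells were grouped by their labels. Tool versions listed in the submitters' processing notes are STAR 2.7.0d, HTSeq 1.9, Bowtie2 2.2.5, SAMtools 1.3, Picard 2.19.0 and MACS2 2.1.1, with mm10 as the build. The authors counted reads on genes and in 200 bp regions made from the union of peaks, divided them by 1 size factor per library, and deposited these values (here used as signal, called normalized counts). All 230384 gene values and 1212862 region values above 0 (100.0% each) could be turned back into whole reads with a tolerance of 0.01 of a read. Peak files of the authors give a score, the fold enrichment and the −log10 of the p-value and q-value for each peak, called by MACS2 in single libraries. Whether counting used strand is not given in the sources used here, and exons of *Il1rap*, *Ptprd* and *Ptprs* overlap RefSeq genes of the other strand, over 353 bp, over 78 and 150 bp, and over 222 bp.

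The design foresaw edgeR, but since the tables hold normalized values, limma 3.58.1 (R 4.3.3) was used on log2(value + 1), which understates changes at low counts. Features were kept by filterByExpr (14024 genes, 108448 regions), 1 model per assay took all its libraries with a level for each population, treat with a trended prior tested against a log2 ratio of 1, and p-values were adjusted over all features. Region positions are 1-based. On simulated libraries limma called for ON-BC against OFF-BC 72 of 100 genes with a 4-fold and 100 of 100 with a 16-fold change, and 9 and 79 of 100 regions, with 0 unchanged features called. EdgeR 4.0.16 and DESeq2 1.42.0 on the recovered reads, other pseudocounts, filters, scaling, gene assignment and leaving out replicates were alternatives.

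The members and lists were chosen with earlier results of these data known. From each partner list up to 3 called genes per direction and comparison with the largest log2 ratio were named, and at each locus the promoters (1000 bp upstream to 100 bp downstream of a start site) and up to 3 called regions per direction, of which a part is printed. The *Ptprd* region tilted to OFF-BC, the *Il1rap* regions that were not called and the interleukin-1 ligands were named outside this rule after their values were seen. A fold against a group without a read uses a floor of 3 reads over the group. RefSeq promoter entries matched 5 of 6 members, and none is printed. The genes most similar to *Ptprf* and 1 marker gene are not reported here.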

Additional observations from a re-analysis of the deposited data

Results flagged for a closer look

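Peaks of 2 libraries of double-sorted green cones entered no comparison, and they held peaks at 5 of the 6 loci. Summed over both libraries there were 6 peaks at *Il1rap*, 6 at *Ptprs*, 3 at *Ptprd*, 3 at *Ptprf* and 1 at *Il1rapl1*, and 0 at *Il1rapl2*. Each double-sorted library had 3 at *Il1rap*, where the single-sorted green cone libraries had 2 to 3 and the rod libraries 0. The 3 at *Ptprd* were all in 1 of these libraries. No count table was used for them, and the differences were not tested.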

How the results depend on the processing

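Of 102 counts of called partner genes and locus regions under alternatives, 94 stayed within 1.5 times. For locus regions between ON-BC and OFF-BC, 16 were called, against 26 by edgeR, 9 with regions assigned to the nearest start site, and 9 to 12 when a library was left out (9 without ON-BC replicate 2), where the remaining library of that group is assumed to vary like the other groups. Assignment to the nearest start site gave 45 of 82 for pan-BC against rods, 38 of 71 for pan-BC against blue cones and 3 of 7 for rods against blue cones, since it keeps 53 tested regions. For rods against blue cones edgeR called 13 regions and DESeq2 4, and the cause was not tested. Same-numbered ON-BC and OFF-BC libraries share an age (postnatal days 43, 48 and 42 for RNA, 42 and 46 for regions), but the labels do not say whether they share mice or a sorting day, and their deviations did not go together throughout (same-number correlations between ON-BC and OFF-BC of -0.0763, 0.222 and -0.0649 for RNA and 0.000174 for regions). With a replicate block, 7 partner genes (8 without) and 16 regions were called between ON-BC and OFF-BC, 37 and 82 between pan-BC and rods, 31 and 71 between pan-BC and blue cones, and 20 and 7 between rods and blue cones. Of 312 member log2 ratios under alternatives, 280 stayed within the spread between replicates and 32 moved beyond it. The sign was kept in 301 and changed in 11, in *Ptprf* between ON-BC and OFF-BC (0.02, down to -0.25 without OFF-BC replicate 1) and in *Ptprd* and *Ptprf* between rods and blue cones (0.12 each, down to -0.61 and -0.59 without blue cone replicate 1). The ON/OFF ratio of *Il1rapl1* ranged from -5.34 to -3.09 and that of *Il1rapl2* from 5.06 to 6.79. Treating blue and green cones as 1 level was run only for comparisons with cones. Regions had fewer reads and 2 libraries a group where genes had 3, and these limits were not separated.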
